A study of Mus musculus with 9 samples.

Results

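Sall1, Sall3, Maf, Mef2a, Mef2c, Irf8, Spi1, Runx1 and Cebpa encode the lineage and identity transcription factors of microglia, the resident macrophages of the brain. The genes were taken by symbol from the deposited per-library table. All 9 were among its 22036 genes, and all 9 passed the filter on low values that kept 14955 genes for testing. Microglia were sorted by flow cytometry from the brains of wild-type female C57BL/6 mice of 3 ages, with no treatment named in the labels. There were 3 libraries from young mice of 6 months, 3 from middle-aged mice of 15 months and 3 from old mice of 23 months. Each library held RNA pooled from 3 mice, so the spread between libraries is one between pools of animals. Neither the sort gate nor read totals are stated in the labels, and the depth behind each value is unknown.

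A macrophage acquires its identity in layers. PU.1 (encoded by Spi1), C/EBP-alpha (Cebpa), RUNX1 and IRF8 open the myeloid programme shared by macrophages, and PU.1 and IRF8 are required for microglia to form. On top of that programme, the zinc-finger protein SALL1, the MADS-box proteins MEF2A and MEF2C and the basic leucine zipper protein c-MAF (Maf) bind enhancers that PU.1 has opened and maintain genes typical of microglia. SALL1 is known for restricting inflammatory genes, and loss of Mef2c in mouse microglia is known to heighten their inflammatory response. SALL3 is a close relative of SALL1.

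The sorted cells carried the markers that define microglia at all ages. Of 14 microglial markers tested, 3 were called lower and 1 higher in old against young libraries by limma. P2ry12 and Gpr34, also listed as markers, had no entry under these symbols in the deposited per-library table. The summed normalized value of the 14, with Tmem119 and Fcrls among them, was 2474970 to 2833770 in young libraries, 2211260 to 2489410 in middle-aged ones and 2264120 to 2484180 in old ones. The nearest list was that of 16 neutrophil markers, with 328852 to 566337 in young, 494367 to 1068120 in middle-aged and 272026 to 550176 in old libraries, followed by border macrophage markers. Markers of neurons summed to at most 365.513 in any library. The old replicate 3 library stood apart from the others, with a library weight of 0.241 when weights were estimated, against 0.584 to 3.99 in the other 8 libraries. Differences of the factors that moved by over 1.5 times without it are given both ways.

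The factors spanned a wide range of transcript levels. Levels of different genes are compared here per kilobase of merged exon, on the log2 scale, over the 9 libraries. Mef2c was the most abundant at 12.38, followed by Maf at 12.07 and Sall1 at 11.86. Runx1 had 10.50, Spi1 10.02, Irf8 9.81, Sall3 9.41, Cebpa 9.32 and Mef2a 8.56. In this order Mef2c and Maf were neighbours whose libraries overlapped, with Mef2c between 12.18 and 12.54 and Maf between 11.71 and 12.45. The ranges of the other neighbours overlapped as well, with the exception of Sall1 and Runx1, whose libraries were at 11.68 to 12.15 and 10.24 to 10.88. The related pair MEF2A and MEF2C thus differed widely in transcript level, Mef2c exceeding Mef2a per kilobase in each library.

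Values below are log2-scale normalized values per library, and differences were tested with the moderated test of limma in 1 fit to all 9 libraries, with Benjamini-Hochberg adjustment over the 14955 genes. The authors' deposited tables hold a separate DESeq2 test with its own adjustment for each pair of ages, and both are given for each factor.

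**Figure D1:**
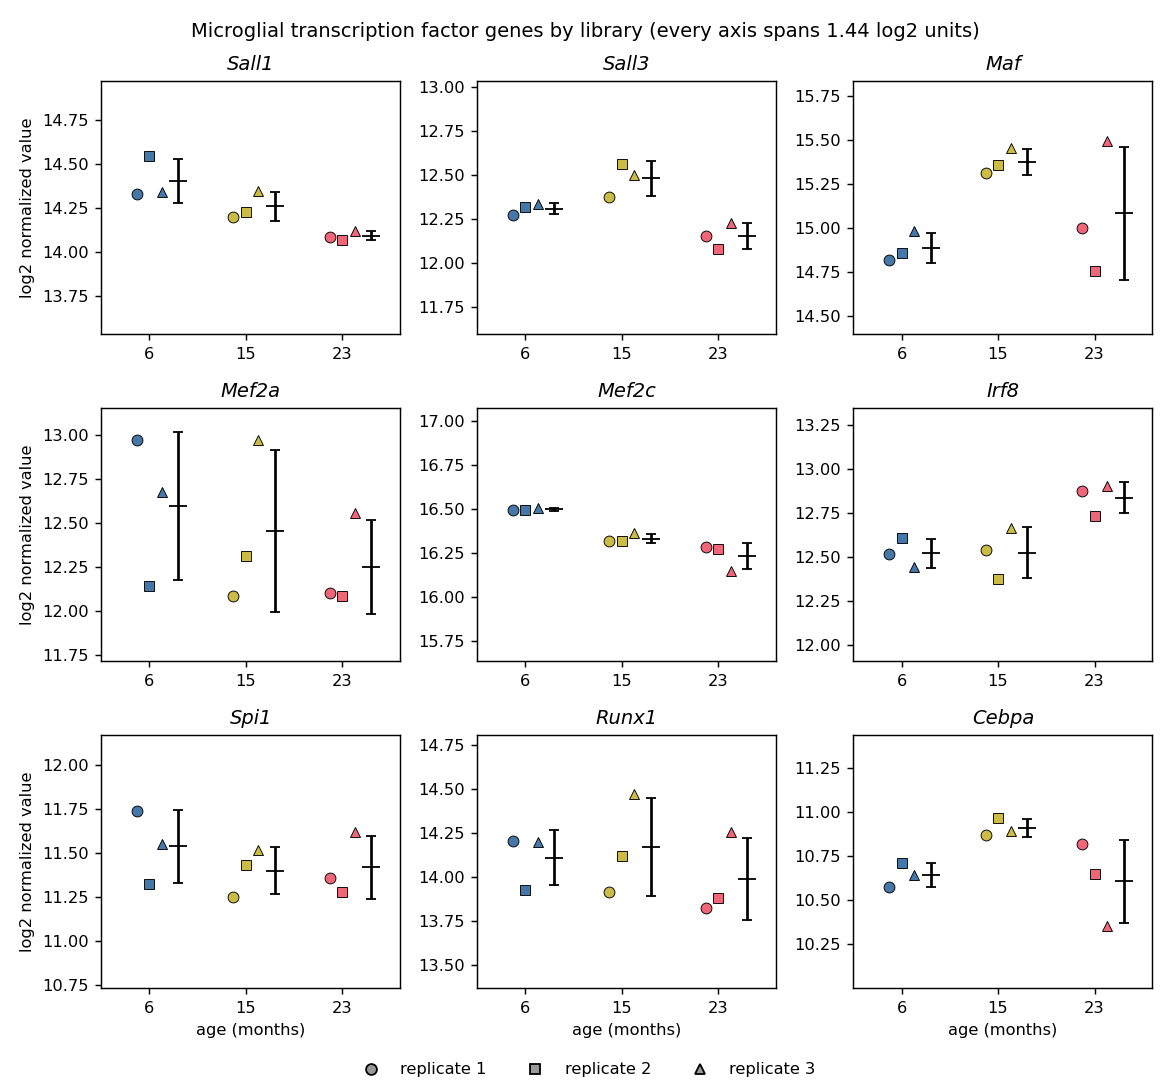
Log2 normalized value (vertical axes) of the 9 transcription factor genes in each library at 6, 15 and 23 months (horizontal axes), with marker shapes for replicate numbers and bars for the mean and SD of 3 libraries. Sall1 and Mef2c are lowest at 23 months, Irf8 is highest there, Maf, Sall3 and Cebpa have their highest means at 15 months, and Mef2a, Runx1 and Spi1 are scattered within each age.

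Sall1 and Mef2c were lower in old microglia than in young microglia in every library. Sall1, the regulator that most sets microglia apart from other macrophages, lies on the minus strand of chromosome 8 at 89027235 to 89044162 of the mm10 (GRCm38) mouse genome. It had values of 14.33, 14.55 and 14.34 in young libraries, 14.20, 14.23 and 14.35 in middle-aged ones and 14.09, 14.07 and 14.12 in old ones. The old libraries lay below all 6 others, and the young and middle-aged ranges overlapped. The old level was 0.805 of the young one (95% interval 0.706 to 0.919; log2 -0.31 ± 0.09 SE, n = 3 per group), which missed the threshold over all genes (limma, Benjamini-Hochberg adjusted p = 0.0964). The authors' deposited table gave a log2 fold change of -0.40 ± 0.12 with DESeq2 adjusted p = 0.015, so that table calls Sall1 lower. Between the steps, Sall1 differed by -0.15 ± 0.09 in middle-aged against young libraries and by -0.17 ± 0.09 in old against middle-aged ones, neither past the threshold (limma, adjusted p = 0.588 and 0.544).

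Mef2c lies on the plus strand of chromosome 13 at 83504034 to 83667080. Its values were 16.49, 16.50 and 16.51 in young libraries, 16.32, 16.32 and 16.36 in middle-aged ones and 16.29, 16.27 and 16.15 in old ones. The 3 ages did not overlap, and each later age lay below the one before. The old level was 0.833 of the young one (95% interval 0.754 to 0.921; log2 -0.26 ± 0.07 SE, n = 3 per group; limma adjusted p = 0.0711). The difference was -0.17 ± 0.07 in middle-aged against young libraries and -0.10 ± 0.07 in old against middle-aged ones (limma adjusted p = 0.364 and 0.637), where it was -0.054 without old replicate 3. In the authors' deposited table Mef2c was called lower in old against young libraries, with a log2 fold change of -0.33 ± 0.09 and DESeq2 adjusted p = 0.0103. That table gave -0.21 for middle-aged against young (DESeq2 adjusted p = 0.0707) and -0.13 for old against middle-aged (0.764). Mef2c had a residual SD between libraries of 0.0458, less than the 0.109 that the model's variance trend assigns to genes of its level, and its moderated error lies between those values. Without the variance trend it was called (limma adjusted p = 0.0449).

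Over the 9 libraries the values of Sall1 and Mef2c had a Pearson r of 0.81. After the mean of each age was subtracted it was -0.01, so their likeness lay between ages and not among libraries of 1 age. This is a description over 9 libraries that share their normalization.

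The sequences before the transcription starts of Sall1, Mef2c and Irf8 are shown because the authors' table calls these 3 genes between young and old. They are the 250 bases before the most upstream start in RefSeq on GRCm38.p6, whose promoter table matched 6 of the 9 genes, namely Sall1, Mef2a, Mef2c, Irf8, Runx1 and Cebpa. Which start is used in these cells was not measured. Capitals mark matches to short motifs searched on both strands: the PU.1 core GAGGAA, the RUNX motif TGTGGT, the C/EBP motif TTGCNNCAA, the IRF motif, the interferon-gamma-activated (GAS) motif TTCNNNGAA, the MAF half-site TGCTGA and the MEF2 motif. The IRF and GAS motifs can overlap.
Sall1: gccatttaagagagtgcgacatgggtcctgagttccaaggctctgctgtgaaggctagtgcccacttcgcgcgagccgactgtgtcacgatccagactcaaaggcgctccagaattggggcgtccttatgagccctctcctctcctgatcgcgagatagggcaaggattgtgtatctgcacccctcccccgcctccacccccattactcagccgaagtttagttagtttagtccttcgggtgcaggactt
Mef2c: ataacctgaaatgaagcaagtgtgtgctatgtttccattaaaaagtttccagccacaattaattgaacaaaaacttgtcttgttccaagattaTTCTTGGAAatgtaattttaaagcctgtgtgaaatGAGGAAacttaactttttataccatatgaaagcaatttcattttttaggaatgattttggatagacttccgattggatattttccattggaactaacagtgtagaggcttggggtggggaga
Irf8: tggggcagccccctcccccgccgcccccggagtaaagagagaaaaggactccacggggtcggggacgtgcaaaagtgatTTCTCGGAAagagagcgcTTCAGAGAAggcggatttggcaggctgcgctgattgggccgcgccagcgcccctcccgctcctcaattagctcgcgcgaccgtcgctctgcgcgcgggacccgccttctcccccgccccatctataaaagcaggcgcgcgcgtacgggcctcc
The Sall1 window at chr8:89044163-89044412 (minus strand) held no match to these letters. The Mef2c window at chr13:83503784-83504033 (plus strand) held a PU.1 core 122 to 117 bases before the start and a GAS match 157 to 149 bases before it. The Irf8 window at chr8:120736108-120736357 (plus strand) held a pair of GAS matches, 171 to 163 and 153 to 145 bases before the start. Of all 32851 windows of this length in the table, 23.3% hold the PU.1 core and 7.02% the GAS motif. The other shares are 14.0% for RUNX, 1.74% for C/EBP, 2.98% for IRF, 16.1% for the MAF half-site and 0.508% for MEF2. A match is a description of the letters and not of a bound site.

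Irf8 was higher in every old library than in any young or middle-aged one. IRF8 works with PU.1 at shared sites and, in mice, drives the reactive state of microglia after injury. Irf8 lies on chromosome 8 at 120736358 to 120756694. Its values were 12.51, 12.60 and 12.44 in young libraries, 12.54, 12.37 and 12.66 in middle-aged ones and 12.87, 12.73 and 12.90 in old ones. The young libraries lay within the range of the middle-aged ones. The old level was 1.25-fold the young one (95% interval 1.07 to 1.45; log2 0.32 ± 0.10 SE, n = 3 per group; limma adjusted p = 0.148) and 1.24-fold the middle-aged one (log2 0.31 ± 0.10; limma adjusted p = 0.339). Middle-aged against young libraries differed by 0.00 ± 0.10, with an interval of 0.86 to 1.17 for the fold. The authors' deposited table calls Irf8 higher in old against young libraries, at 0.41 ± 0.12 on the log2 scale (DESeq2 adjusted p = 0.0187), and does not call it in old against middle-aged ones (0.35 ± 0.14, DESeq2 adjusted p = 0.261). Within each library Irf8 exceeded its partner Spi1 by 1.51, 1.45 and 1.28 in old and by 0.77, 1.28 and 0.89 in young libraries on the log2 scale, uncorrected for length. Old replicate 3 and young replicate 2 were nearly equal in that difference.

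Maf, Cebpa and Sall3 had their highest means at 15 months. Maf encodes c-MAF, which restrains proliferation in macrophages, and lies on chromosome 8 at 115682942 to 115707794. Its values were 14.82, 14.86 and 14.98 in young libraries, 15.32, 15.36 and 15.46 in middle-aged ones and 15.00, 14.76 and 15.50 in old ones. The middle-aged libraries lay above all young ones, while the old ones spanned the whole range of the 9 libraries. Middle-aged libraries had 1.41-fold the young level (95% interval 1.11 to 1.78; log2 0.49 ± 0.15 SE, n = 3 per group; limma adjusted p = 0.259). The authors' deposited table calls this difference, at 0.59 ± 0.10 (DESeq2 adjusted p = 6.08e-06). Old libraries differed from young ones by 0.20 ± 0.15 with old replicate 3 and by -0.01 without it (limma adjusted p = 0.553 and 0.985). Against middle-aged libraries the old ones differed by -0.29 ± 0.15, and by -0.50 without old replicate 3 (limma adjusted p = 0.548 and 0.114). Without that library, the F test over 3 ages called Maf (limma adjusted p = 0.0462, against 0.258 with it).

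Cebpa, an intronless gene of 2.636 kb on chromosome 7, had values of 10.57, 10.71 and 10.65 in young libraries, 10.87, 10.97 and 10.89 in middle-aged ones and 10.82, 10.65 and 10.35 in old ones. The middle-aged libraries lay above the other 6. They had 1.20-fold the young level (95% interval 0.998 to 1.45; log2 0.27 ± 0.12 SE, n = 3 per group; limma adjusted p = 0.448). In the authors' deposited table Cebpa was called higher for this pair, at 0.37 ± 0.12 (DESeq2 adjusted p = 0.0471). The old against middle-aged difference was -0.30 ± 0.12 (limma adjusted p = 0.44; authors' deposited table -0.33 ± 0.17, DESeq2 adjusted p = 0.523), and it was -0.17 without old replicate 3, the lowest library. Old against young libraries differed by -0.04 ± 0.12, and by 0.09 without old replicate 3.

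Sall3 lies on chromosome 18. Its values were 12.27, 12.32 and 12.33 in young libraries, 12.37, 12.56 and 12.50 in middle-aged ones and 12.15, 12.08 and 12.23 in old ones. The 3 ages did not overlap, and the order was middle-aged, young, old. Old libraries had 0.798 of the middle-aged level (95% interval 0.697 to 0.913; log2 -0.33 ± 0.09 SE, n = 3 per group; limma adjusted p = 0.241). In the authors' deposited table this difference was -0.42 ± 0.12 and just missed the threshold (DESeq2 adjusted p = 0.0511). Middle-aged against young libraries differed by 0.17 ± 0.09 and old against young ones by -0.15 ± 0.09 (limma adjusted p = 0.509 and 0.419). The paralogs Sall1 and Sall3 thus differed in their order of ages. Sall1 exceeded Sall3 within a library by 1.83, 1.67 and 1.85 in middle-aged libraries, against 2.06, 2.23 and 2.01 in young ones, on the log2 scale and uncorrected for length, and these groups did not overlap.

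Of 10812 named genes with a mean of at least 50, Egr1 had the values most like those of Sall3 over the 9 libraries (Pearson r 0.97, Spearman rho 0.97, and r 0.98 without the 2 libraries in which Sall3 lay farthest from its median). EGR1 is an immediate early transcription factor, quickly induced by stimuli. Egr1 had 13.82, 14.05 and 14.03 in young libraries, 14.07, 14.37 and 14.38 in middle-aged ones and 13.57, 13.57 and 13.67 in old ones. In old against middle-aged libraries Egr1 fell by 0.67 on the log2 scale (limma adjusted p = 0.0415), a call lost without any 1 of 8 of the 9 libraries (limma adjusted p up to 0.16). Because Egr1 was picked for its likeness to Sall3 over all ages, this fall is not independent of that choice.

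**Figure D2:**
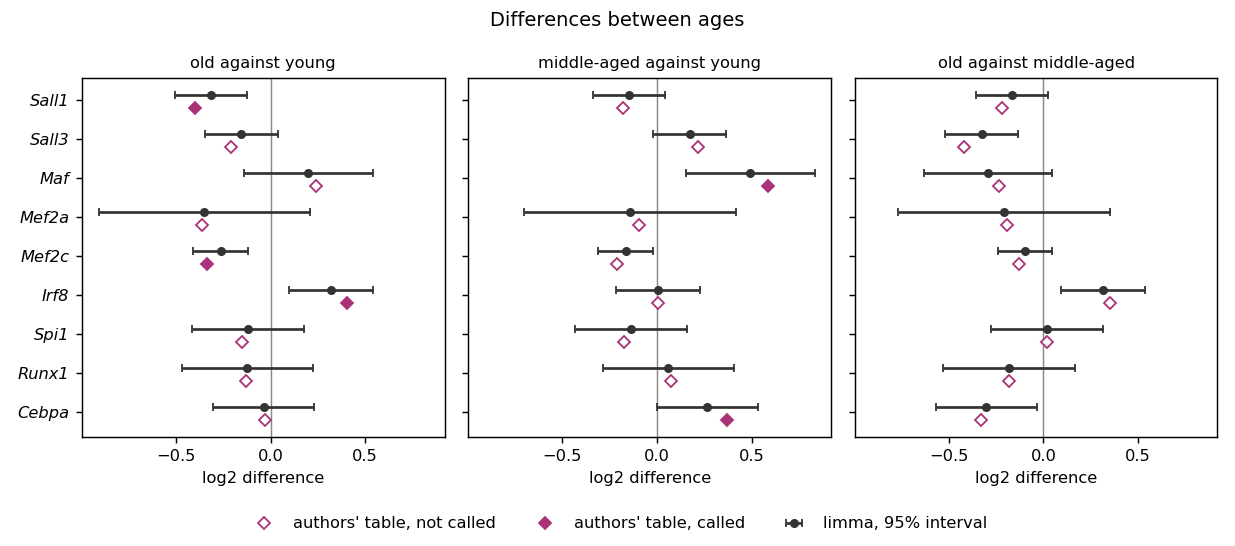
Log2 difference (horizontal axes) of each factor for old against young, middle-aged against young and old against middle-aged libraries. Black points are limma estimates with 95% intervals, and diamonds are the authors' deposited DESeq2 fold changes, filled where called at adjusted p under 0.05. Filled diamonds appear for Sall1, Mef2c and Irf8 in old against young and for Maf and Cebpa in middle-aged against young.

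Mef2a, Runx1 and Spi1 varied more among libraries of 1 age than between ages. Mef2a had values of 12.98, 12.15 and 12.68 in young libraries, 12.09, 12.32 and 12.97 in middle-aged ones and 12.10, 12.09 and 12.56 in old ones. Its ages overlapped throughout, and its residual SD of 0.392 exceeded that of 98.7% of the genes tested. Old against young libraries differed by -0.35 ± 0.25, an interval of 0.533 to 1.155 for the fold (limma adjusted p = 0.523). Runx1, the factor of definitive blood formation, had values of 14.20, 13.93 and 14.20 in young, 13.91, 14.12 and 14.47 in middle-aged and 13.82, 13.88 and 14.25 in old libraries. Spi1 had values of 11.74, 11.33 and 11.55 in young, 11.25, 11.43 and 11.52 in middle-aged and 11.36, 11.28 and 11.62 in old libraries. Their ages overlapped as well. Old against young libraries differed by -0.12 ± 0.16 for Runx1 and by -0.12 ± 0.13 for Spi1, with intervals of 0.722 to 1.17 and 0.75 to 1.131 for the fold (limma adjusted p = 0.732 and 0.695). Without old replicate 3 these differences were -0.26 for Runx1 and -0.22 for Spi1 (limma adjusted p = 0.483 and 0.488). In old against middle-aged libraries they were -0.18 for Runx1 and 0.02 for Spi1, and -0.32 and -0.08 without that library. Mef2a had -0.21 there and -0.36 without it. The authors' deposited tables call none of these 3 genes for any pair of ages. A change of Spi1 by the size seen for Sall1 lies within its interval.

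These 3 genes deviated from the means of their ages in the same libraries. Over the 9 libraries the within-age deviations of Mef2a had an r of 0.94 with those of Runx1 and 0.91 with those of Spi1, and Runx1 and Spi1 had 0.86. Young replicate 1, middle-aged replicate 3 and old replicate 3 were above the means of their ages for all 3 genes, and young replicate 2, middle-aged replicate 1 and old replicates 1 and 2 were below them. Mef2a and Runx1 span 141.696 and 224.684 kb of the genome, where the median tested gene spans 22.043 kb. A score of long genes, the mean deviation of the 1490 tested genes that span at least 122.569 kb, moved with them. Within ages this score was 0.0903 in young replicate 1 and 0.108 in middle-aged replicate 3, against -0.0999 in young replicate 2 and -0.0693 in middle-aged replicate 1. Its r with the within-age deviations was 0.91 for Mef2a, 0.76 for Runx1 and 0.72 for Spi1, which spans only 33.367 kb. As high an r was found in 1.52%, 5.90% and 7.08% of the genes tested. Mef2c, which spans 163.047 kb and belongs to the same long genes, had an r of 0.17. In old libraries the score ran from -0.0288 to 0.0233 and old replicate 3, high for all 3 genes, had 0.00551. With the score as a covariate, old against young differences were 0.05 for Mef2a, 0.07 for Runx1 and 0.02 for Spi1, all with the opposite sign to those without it. Before age means were subtracted, the score was 0.133, -0.0575 and 0.0521 in young libraries and -0.0746, -0.0225 and -0.0402 in old ones. The covariate can thus take up part of a difference between ages. Mef2a and Runx1 are themselves among the genes of the score. The cause of the shared deviation was not tested.

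**Figure D3:**
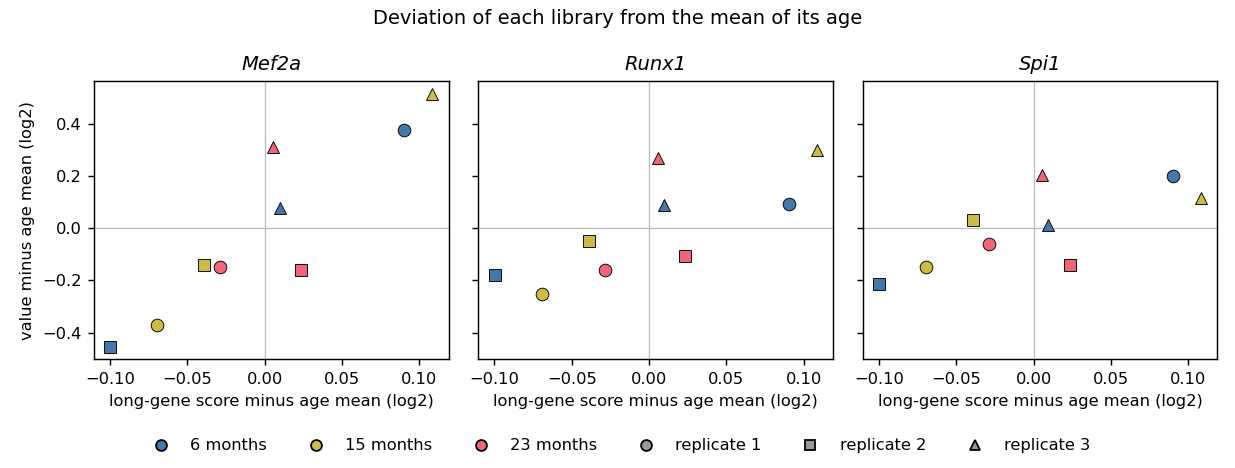
Deviation of Mef2a, Runx1 and Spi1 from the mean of their age (vertical axes, log2) against that of the long-gene score (horizontal axes, log2) in the 9 libraries, with colours for ages and shapes for replicate numbers. Young replicate 1 and middle-aged replicate 3 lie at the upper right and young replicate 2 and middle-aged replicate 1 at the lower left in each panel, and old replicate 3 is high with a score near 0.

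The genes most like the other factors over the 9 libraries, by the same measure, are given as a description. Accs was the most like Sall1 (r 0.95) and fell by 0.45 on the log2 scale in old against young libraries (limma adjusted p = 0.0311). The transporter gene Slc16a6 (r 0.97) and Tnfrsf17, which encodes the receptor BCMA (r 0.97), were the most like Mef2c. They fell by 0.57 and 0.61 in old against young libraries (limma adjusted p = 0.0188 and 0.0377). Since Accs, Slc16a6 and Tnfrsf17 were picked for likeness over libraries of all ages, their falls are not independent of that choice. Hps1 was the most like Irf8 (r 0.98), with Gltp next (0.96). Ppig (0.98) was the most like Maf. Lrch1 and Bach2 (both 0.99) were the most like Mef2a, Lncpint (0.99) the most like Runx1, Anks1 (0.97) the most like Spi1 and P3h1 (0.97) the most like Cebpa. Spearman rho ranged from 0.88 to 0.98 over the 2 most alike genes of each factor.

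Counted over the 9 factors, none was called by limma in any comparison, nor by its F test over the 3 ages, which called 0.836% of all genes. In old against young libraries 0 of 9 were called, where 2.00% of all genes tested were, and 3 had an unadjusted p under 0.05, where 16.8% of all genes did. In middle-aged against young libraries 0 of 9 were called against a background of 0.114%, and 2 had an unadjusted p under 0.05 against 11.4%. In old against middle-aged libraries 0 of 9 were called against 0.174%, and 3 had an unadjusted p under 0.05 against 10.2%. With a weight estimated for each library, limma called 3 of 9 in old against young, Sall1, Mef2c and Irf8 (adjusted p = 0.0259, 0.0153 and 0.0169), beside 1609 of all genes tested. The authors' deposited DESeq2 tables called 3 of 9 in old against young (1 higher, where 4.72% of all genes were, and 2 lower, where 2.90% were; 7.62% in all), 2 of 9 in middle-aged against young (both higher, where 3.26% of all genes were and 2.53% were lower; 5.78% in all) and 0 of 9 in old against middle-aged (1.32%). The groups did not overlap for 4 of 9 factors in old against young, where 24.5% of all genes did not: Irf8 was higher and Sall1, Sall3 and Mef2c were lower. That count was 4 of 9 in middle-aged against young, against 21.6%, with Sall3, Maf and Cebpa higher and Mef2c lower. It was 5 of 9 in old against middle-aged, against 12.9%, with Irf8 higher and Sall1, Sall3, Mef2c and Cebpa lower. The median log2 difference of the factors was -0.12 in old against young, 0.00 in middle-aged against young and -0.18 in old against middle-aged libraries, and it was between -0.01 and 0.00 over all genes tested. The step from 15 to 23 months minus the step from 6 to 15 months was -0.79 ± 0.27 for Maf, -0.57 ± 0.21 for Cebpa and -0.50 ± 0.15 for Sall3 on the log2 scale, none past the threshold (limma adjusted p = 0.492, 0.54 and 0.462). No gene of the 14955 was called for that difference by limma, and 7.90% had an unadjusted p under 0.05.

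Relatives of the 9 factors were read from 7 family lists, with 39 further genes tested. Of these, 1 was called in old against young libraries, Irf7, which amplifies the type I interferon response. Irf7 had 11.98, 12.29 and 12.21 in old libraries against 11.20, 11.65 and 11.49 in young ones, and rose 1.64-fold (log2 0.72 ± 0.15 SE, n = 3 per group; limma adjusted p = 0.0424). The other 8 IRF genes, Irf8 among them, were not called, and the 9 had a median of 0.02. In that comparison 8 of 39 had an unadjusted p under 0.05, beside 16.8% of all genes. No relative was called by limma in middle-aged against young or old against middle-aged libraries, where 6 and 5 of 39 had an unadjusted p under 0.05, beside 11.4% and 10.2% of all genes. Cebpb, the C/EBP relative tied to inflammatory activation, had 9.42, 9.11 and 9.69 in old libraries against 8.71, 8.75 and 8.74 in young ones, without overlap (log2 0.67 ± 0.17; limma adjusted p = 0.0722). The authors' deposited tables call Cebpb higher in old and in middle-aged against young libraries, at 1.03 and 1.20 (DESeq2 adjusted p = 0.000174 and 1.49e-08), where Cebpa had -0.03 and 0.37. In the authors' deposited table Sall2 was called lower in middle-aged against young libraries (-0.53, DESeq2 adjusted p = 0.0102). Mef2d, the remaining MEF2 gene tested, had 11.73, 11.66 and 11.07 in old libraries against 12.11, 11.86 and 12.001 in young ones, lower without overlap but not called (log2 -0.50 ± 0.16; limma adjusted p = 0.15). Without old replicate 3, its lowest library, the difference was -0.30 (limma adjusted p = 0.219). Sall2 had 9.23, 9.46 and 8.61 in old libraries against 9.40, 9.47 and 9.43 in young ones. These overlapped, and old replicate 3 was again the lowest (log2 -0.33 ± 0.18, limma adjusted p = 0.391). All 3 SALL genes and all 3 MEF2 genes tested were thus lower on average in old than in young libraries, with none past the threshold in limma. Of 15 ETS genes and 6 genes of the RUNX list, which includes the partner Cbfb, 0 were called by limma in any comparison. Their medians in old against young libraries were -0.12 and -0.01.

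**Figure D4:**
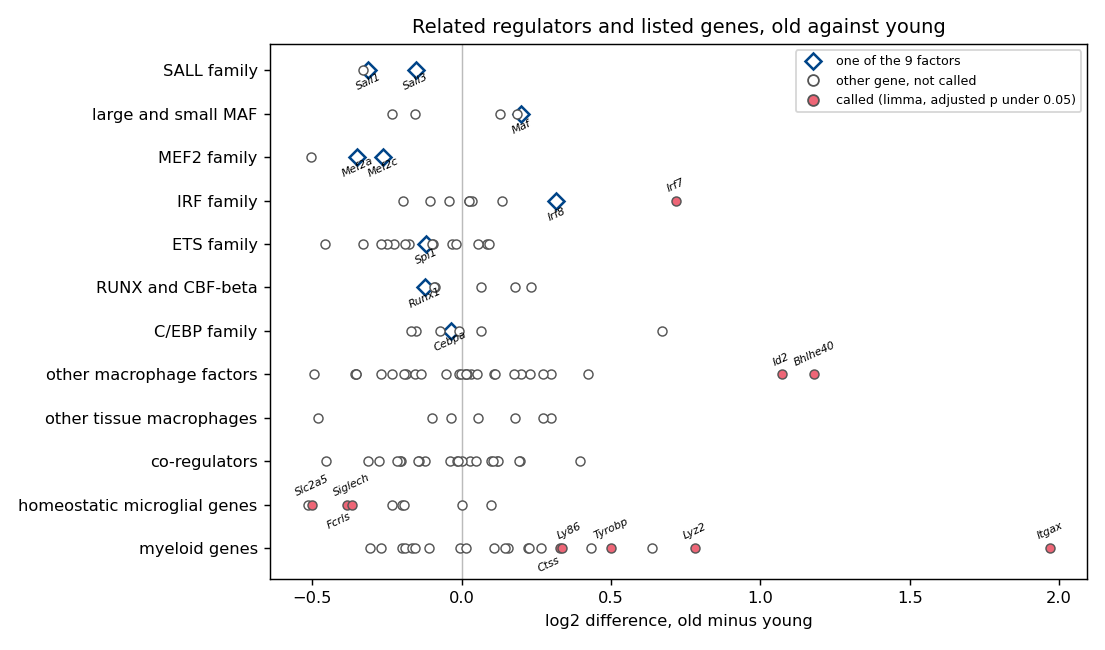
Log2 difference, old minus young (horizontal axis), of every tested gene on the family and gene lists, which are set out down the vertical axis. Diamonds are the 9 factors and filled points are genes called by limma at adjusted p under 0.05; none of the 9 is filled, and Itgax, Bhlhe40 and Id2 lie furthest to the right.

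Beyond these families, 28 other macrophage factors were tested. Bhlhe40, a helix-loop-helix repressor gene, had 12.70, 12.40 and 12.47 in old libraries against 11.24, 11.45 and 11.35 in young ones and rose 2.27-fold (log2 1.18 ± 0.11; limma adjusted p = 0.000514). It also rose 1.68-fold in old against middle-aged libraries (limma adjusted p = 0.0414). Id2, which encodes an inhibitor of such helix-loop-helix proteins, had a 2.10-fold rise between young and old libraries (log2 1.07 ± 0.14; limma adjusted p = 0.0033). On the log2 scale Id2 differed by 0.80 in middle-aged against young and by 0.27 in old against middle-aged libraries (limma adjusted p = 0.0714 and 0.536). For old against young the authors' deposited table gave 2.81-fold for Bhlhe40 and 2.33-fold for Id2. The other 26 were not called in old against young libraries, and the list's median was 0.01. In the authors' deposited table, Smad3 and Ikzf1 were called lower in old against young libraries, at -0.45 for both (DESeq2 adjusted p = 0.0155 and 0.00707). SMAD3 transmits the TGF-beta signal that sustains Sall1. Klf4 was also called lower in that table, at -0.58 (DESeq2 adjusted p = 0.0254). Of these 28 factors, the authors' tables called 2 higher and 3 lower in old against young libraries. In middle-aged against young ones the counts were 4 and 0, the higher being Id2 (0.88), Bhlhe40 (0.53), Myb (0.47) and Skil (0.35). Old against middle-aged libraries had 1 higher and 2 lower. Among 22 co-regulators, such as the class IIa histone deacetylases that bind MEF2 proteins and the NuRD subunits that bind SALL1, limma called 0 in each comparison. An unadjusted p under 0.05 was found for 3 of 22 in old against young libraries, beside 16.8% of all genes. The count was 7 of 22 in middle-aged against young, beside 11.4%, and 2 of 22 in old against middle-aged, beside 10.2%. Mta2, a NuRD subunit, had a log2 difference of -0.45 ± 0.10 in old against young libraries (limma adjusted p = 0.0531), and the authors' deposited table calls it lower there, at -0.59 (DESeq2 adjusted p = 0.00523). Hdac4 was called lower in middle-aged against young libraries in the authors' deposited table, at -0.39 (DESeq2 adjusted p = 0.0398). Other co-regulators went the other way in those tables. Junb was called higher in old and in middle-aged against young libraries, at 0.60 and 0.73 (DESeq2 adjusted p = 0.0445 and 0.00146). Jun was called higher in middle-aged against young libraries (0.44, DESeq2 adjusted p = 0.0149) and lower in old against middle-aged ones (-0.55, DESeq2 adjusted p = 0.0369).

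Homeostatic microglial genes and general myeloid genes differed in direction between old and young libraries. Of 9 homeostatic genes tested, 3 fell, 0 rose and 6 were not called. P2ry12, Gpr34 and P2ry13, also on that list, had no entry under these symbols in the deposited per-library table. Slc2a5, a fructose transporter gene that depends on Sall1 in mouse microglia, had 16.06, 15.99 and 15.76 in old libraries against 16.35, 16.55 and 16.42 in young ones, and fell to 0.706 of the young level (log2 -0.50 ± 0.10; limma adjusted p = 0.0331). The lectin gene Siglech fell to 0.775 and the Fc receptor-like gene Fcrls to 0.766 of the young level (limma adjusted p = 0.0439 and 0.0494). The list's median was -0.23 in old against young and -0.23 in middle-aged against young libraries, beside about 0 for all genes tested. Of 22 myeloid genes, several of them known targets of PU.1, 5 rose, 0 fell and 17 were not called, with a median of 0.15. Itgax rose 3.92-fold (limma adjusted p = 3.14e-05), the lysozyme gene Lyz2 1.72-fold (0.0125), the adaptor gene Tyrobp 1.41-fold (0.0331) and Ly86 1.26-fold (0.0327). The authors' deposited table gave larger rises for old against young, at 6.69-fold for Itgax and 1.89-fold for Lyz2. Tyrobp and Ly86 also rose more there, and Slc2a5, Siglech and Fcrls fell more. Folds from the per-library values were thus the smaller ones for these genes, and the cause was not tested. When any 1 library was left out, Itgax, Bhlhe40 and Id2 stayed called in old against young libraries, by limma. The calls of Lyz2, Tyrobp, Ly86, Irf7, Slc2a5, Siglech, Fcrls, Accs, Slc16a6 and Tnfrsf17 were each lost without at least 1 library, with their direction kept. The adjusted p reached 0.198 for Fcrls, the highest of these, without young replicate 3. Without old replicate 3 it was 0.0975 for Irf7, 0.0789 for Slc2a5, 0.0938 for Siglech and 0.117 for Fcrls. The call of Bhlhe40 in old against middle-aged libraries was lost without any 1 library (limma adjusted p 0.0675 to 0.122).

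Markers of other cells that express some of the factors were read at each age too. In these bulk samples fewer cells of a type and less RNA per cell cannot be told apart. Border macrophages also express Maf. Their 15 other markers had summed values of 110128 to 144529 in old, 122452 to 153115 in middle-aged and 170999 to 181800 in young libraries, so that both later ages lay below the young one. Of the 16 markers, Maf included, 2 were called lower in old against young libraries and 0 in middle-aged against young ones, with medians of -0.43 and -0.32. The higher Maf values at 15 months thus stood beside lower border macrophage markers. Of 16 neutrophil markers, from cells that express Cebpa, Spi1 and Runx1, limma called 0 in each comparison. Their median was 0.49 in middle-aged against young, -0.59 in old against middle-aged and -0.03 in old against young libraries. Cebpa differed by 0.27, -0.30 and -0.04 in these comparisons. The neutrophil markers were highest in middle-aged replicate 2, at a mean deviation of 0.895 from their means over the libraries. Cebpa was also highest in that library, and without it Cebpa differed by 0.24 in middle-aged against young libraries. Of 16 monocyte markers, from cells that express Irf8 and Spi1, 3 were called higher in old against young libraries, and their median was 0.42. Their summed values were 55351.8 to 86878.5 in old and 56111.5 to 112805 in middle-aged libraries, against 42223.9 to 59964 in young ones. In middle-aged against young libraries 0 of them were called and their median was 0.35, where Irf8 differed by 0.00. Of 10 B cell markers 1 was called higher in old libraries, and of 15 T and NK cell markers 2. Of 11 dendritic cell markers 2 were called lower, among them Siglech, which is also on the microglial list. Of 11 endothelial and pericyte markers 1 was called higher and of 8 oligodendrocyte markers 1. Astrocyte, neuron and erythrocyte markers had no call in any comparison by limma, with 9, 5 and 5 tested, and Olig1, Olig2, Sox10, Rbfox3, Gad1, Gad2 and Slc17a7 were below the filter on low values. The part of these cells in the values of the factors was not tested.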

How the data were processed

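Sorted mouse microglia were profiled by RNA-seq. The submitters' processing notes name CASAVA, cutadapt 1.13, STAR 2.5.3, DESeq2 1.16.1 and mm10; no source used here states the counter, the annotation or the transformation. The authors' deposited per-library values lie on a log2 scale (-2.14 to 20.05) and were taken as they stand. Per the file headers, their comparison tables hold a mean normalized signal, a log2 fold change with its error, a test score, p-values and adjusted p-values. A positive fold change there means higher at the later age, since its sign matched the per-library values in 100% of abundant called genes. P-values measure the spread between these pools of mice.

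Genes reaching 3.32 (10 on the linear scale) in 3 or more libraries entered limma 3.58.1 (R 4.3.3), with a variance trend, 2-sided moderated tests and a threshold of 0.05 on the Benjamini-Hochberg adjusted p. With 3 libraries a side an exact permutation test could reach no less than 0.1. The fit was tested on simulated data. The factors and lists were chosen with earlier results of these data known. Named were all factors, at most 4 limma-called genes per list and comparison (or the 1 with the smallest p) and the 2 genes most like each factor; genes named only for a call in the authors' tables were chosen after their values were seen. Some genes that the rule selects are not reported here. Positions are from GENCODE M21 (GRCm38) and promoter letters from RefSeq. Alternatives were other filters, pseudocounts, scalings and variance models, library weights, a replicate block, fits to pairs of ages, and each library left out. A long-gene covariate, and leaving out libraries for the genes named beside the factors, were added after seeing the data.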

Additional observations from a re-analysis of the deposited data

How the results depend on the processing

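No factor crossed the threshold in most alternatives. Of 747 alternative values for single factors, 714 kept direction and call, 4 became called and 29 turned sign without a call. Library weights, which gave old replicate 3 the weight 0.241, called 3 factors in old against young (limma adjusted p = 0.0259 for Sall1, 0.0153 for Mef2c and 0.0169 for Irf8) and 3 in the F test (0.0450 for Maf, 0.0268 for Mef2c and 0.0355 for Irf8; 0.0592 for Sall1), with 1609, 312, 62 and 1275 genes called in old against young, middle-aged against young, old against middle-aged and the F test. Without a variance trend 1 factor (Mef2c) was called in old against young and 3 genes in old against middle-aged. The counts of genes called, 299, 17 and 26 for these pairs of ages, were 170, 10 and 9 without a filter. They were 29 in middle-aged against young and 47 in old against middle-aged with a filter of 50. Fits of the 2 ages alone called 153 in old against young and 0 in old against middle-aged, and the long-gene covariate gave 125, 5 and, in the F test (125 otherwise), 71. The cause of these changes was not tested.

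Leaving out 1 library at a time gave 83 to 322 genes in old against young, 4 to 49 in middle-aged against young, 3 to 23 in old against middle-aged, 0 to 5 for the difference between the steps and 51 to 141 in the F test, with 0 to 1 factors called there (Maf without old replicate 3) and 0 elsewhere. Every one of the 9 libraries moved at least 1 of these counts by over 1.5 times. Sign changed for some uncalled values. Leaving out libraries gave, in middle-aged against young -0.399 to 0.046 for Mef2a, -0.064 to 0.081 for Irf8 and -0.091 to 0.185 for Runx1. It gave, in old against middle-aged -0.081 to 0.091 for Spi1 and -0.395 to 0.049 for Mef2a. It gave, for the difference between the steps -0.092 to 0.070 for Sall1, -0.439 to 0.448 for Mef2a and -0.493 to 0.060 for Runx1. It gave, in old against young -0.0070 to 0.363 for Maf and -0.145 to 0.090 for Cebpa. Sign also changed under library weights for Cebpa in old against young (0.10), Runx1 in middle-aged against young (-0.020) and Spi1 in old against middle-aged (-0.025), and under median centring for Irf8 in middle-aged against young (-0.0017). With the long-gene covariate Mef2a was at 0.046, 0.034 and 0.012 in old against young, middle-aged against young and old against middle-aged, and Runx1 at 0.071 and Spi1 at 0.023 in old against young.

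With the replicate number as a block, 185, 11 and 14 genes were called for these pairs of ages and 80 in the F test, and 0 factors. Whether the numbers pair the libraries cannot be settled from these values. Deviations of same-numbered libraries correlated at -0.24 to 0.23, with 3 of 9 pairs over 0.1. Those of differently numbered libraries correlated at -0.44 to 0.42, with 2 of 18 pairs over 0.1. Not every library correlated best with its own number.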
